A study of Mus musculus with 96 samples.

Results

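Among untreated cells of the mouse lung line C10, 9 cells high and 9 cells low in transcripts of the extracellular matrix were compared. The cells were selected on their own readout: each kept control cell was ranked by the summed level, in counts per 1e6 counts of the cell (CPM), of Col1a1, Col1a2, Col3a1, Fn1 and Thbs1, and the highest and the lowest of 3 equal parts were taken. These are 18 of the 29 control cells that passed minimums of 50000 counts and of 1000 genes detected with 1 count or more, out of 48 control libraries and 96 libraries in all. The other 11 kept control cells lie between them. The rule used the values of the 5 transcripts, so those are given as a description, and the 5 were left out of every comparison of other genes.

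The libraries come from nanoSPLITS, in which the lysate of a sorted cell is shared between an RNA and a protein measurement. Each RNA library holds 1 cell. Control cells are labelled with no treatment, and the other 48 libraries are from cells given RO-3306, sold as an inhibitor of the mitotic kinase CDK1, at a labelled 10 nM for 36 h. All cells grew in the same serum-containing medium. The labels name no separate cultures, so cells were not treated as replicates: nothing below carries a p-value, and spread is given as the range over cells.

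Fibrillar collagens are the load-bearing fibres of the matrix. Type I collagen is assembled from Col1a1 and Col1a2 chains and type III from Col3a1 chains, which are folded in the endoplasmic reticulum, secreted and crosslinked outside the cell. Fn1 encodes fibronectin, on which collagen fibres are laid down, and Thbs1 encodes thrombospondin-1, a secreted glycoprotein that can activate latent TGF-beta.

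The labels call C10 cells alveolar type II epithelial cells. Of 11 alveolar type II markers, 7 had no count of 1 or more in any of the 29 kept control cells, among them the surfactant genes Sftpc and Sftpb and the lung factor Nkx2-1. Of the rest, Etv5 had a count in 10 cells, Lpcat1 and Lamp3 in 7 each and Abca3 in 6. Of 11 epithelial markers, 5 were absent in the same sense, Krt8 and Krt18 included, while Cdh1 had a count in 8 cells, up to 2.46 CPM. Of 16 mesenchymal markers, Vim and S100a4 had counts in 29 of 29 cells, while Thy1, Fap and Prrx1 had no count of 1 or more in any cell and Pdgfra had one in 6 cells. Surfactant genes Sftpc and Sftpb, which define the labelled cell type, were thus not detected on either side of the ranking. The summed epithelial markers ran from 0 to 397 CPM in the high cells and from 0 to 267 CPM in the low cells, and the summed type II markers from 0 to 87.8 CPM and from 0 to 94.1 CPM. Macrophage markers summed to at most 245 CPM in a high cell and 178 CPM in a low cell. Ptprc was at 0 throughout, while Cd14 had a count in 13 of the 29 cells. Endothelial markers summed to at most 79.3 CPM in a high cell and 5.73 CPM in a low cell. Kdr and Vwf were at 0 throughout, while Tek had a count in 5 cells.

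The summed level of the 5 transcripts ran from 2215 to 8207 CPM in the high cells (median 3191), from 1334 to 2062 CPM in the middle cells (median 1451) and from 557 to 1296 CPM in the low cells (median 1055). The ranking is a slope rather than a step. The last high cell (cell C2, 2215 CPM) and the first middle cell (A1, 2062 CPM) lie close together, as do the last middle cell (C1, 1334 CPM) and the first low cell (D8, 1296 CPM). Cell B4 stands apart at the top, with 8207 CPM against 5023 CPM in the next cell. Cells are named here by the letter and number of their label, whose meaning is not given.

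**Figure D1:**
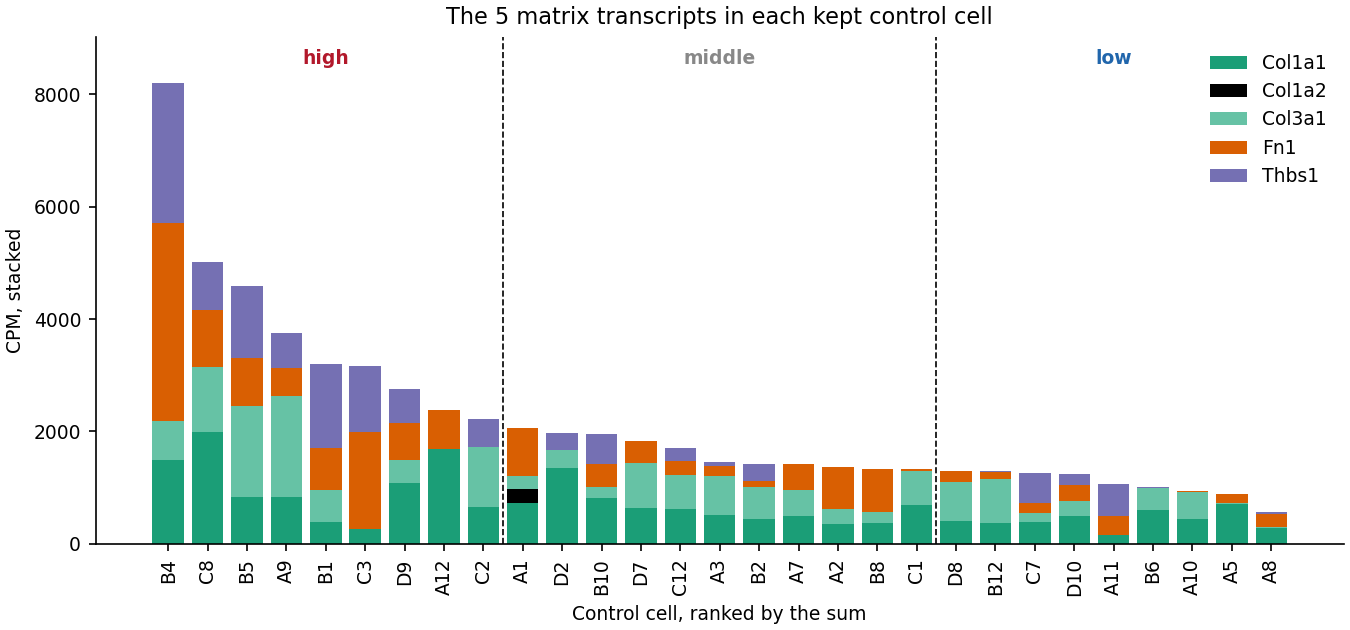
Stacked CPM of the 5 transcripts in each of the 29 kept control cells, ordered by their sum; dashed lines part the high, middle and low cells. Cell B4 reaches 8207 CPM, Thbs1 fills much of the bar in most high cells, and Col1a2 is visible only in cell A1.

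The 5 transcripts did not contribute alike. Col1a1 exceeded 100 CPM in all 29 kept control cells, with a range of 255 to 1988 CPM in the high cells and 144 to 702 CPM in the low cells. Fn1 ran from 0 to 3526 CPM in the high cells (median 745) and from 1.67 to 348 CPM in the low cells (median 185). Thbs1 was closest to on or off: it exceeded 100 CPM in 8 of 9 high cells, 4 of 11 middle cells and 3 of 9 low cells, with medians of 860 CPM and 19.7 CPM on the high and low side. Col3a1 was absent from 2 high cells (C3 and A12) and had medians of 692 CPM and 250 CPM. Col1a2, the partner chain of Col1a1 in type I collagen, was at 0 in 27 of the 29 cells, at 0.397 CPM in B1 and at 260 CPM in the middle cell A1.

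Across the 29 cells the 5 transcripts followed one another weakly. The highest Spearman correlations were those of Fn1 with Thbs1 (0.39) and of Col1a1 with Col3a1 (0.36), while Col3a1 and Fn1 had -0.04. All of these share the depth and the composition of the same libraries. A high cell was thus high through different transcripts: C3 through Fn1 (1737 CPM) and Thbs1 (1174 CPM) with no Col3a1, A9 through Col3a1 (1797 CPM), and A12 through Col1a1 (1680 CPM).

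Depth overlapped widely between the sides, and genes per cell overlapped with the wider range in the high cells. High cells had 176892 to 6457215 counts (median 2504105) and low cells 59979 to 4196340 (median 1773615). With cells thinned to 639000 counts, 7 high cells had 3544 to 9012 genes with a count (median 4658) and 8 low cells 3660 to 5573 (median 4531.5); 2 high cells and 1 low cell were shallower and are left out of this range. At full depth the high cells had 1812 to 10275 genes (median 4707) and the low cells 3951 to 6464 (median 4999). The 2 high cells left out, C3 (1812) and A12 (2687), and high cell C2 (3526) lay below every low cell at full depth. The median of the high cells minus that of the low cells was 126.5 genes at equal depth. It was -433 to -189 in the 3 alternative counts of genes. Over all 29 cells the Spearman correlation of the matrix sum was 0.16 with total counts and 0.02 with genes at full depth.

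Cell B4 was also the deepest control cell and held the most genes, 10275 at full depth. Whether its well held more than 1 cell was not tested. The share of counts from mitochondrially encoded genes had a median of 3.37% in the high cells and 3.85% in the low cells, and its correlation with the matrix sum was -0.34. Of the 4 lettered sets, A gave 2 high and 4 low cells, B 3 and 2, C 3 and 1, and D 1 and 2, so set C has a single low cell (C7) and set D a single high cell (D9). If the letters mark a batch, batch and side overlap in part but are not the same split.

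**Figure D2:**
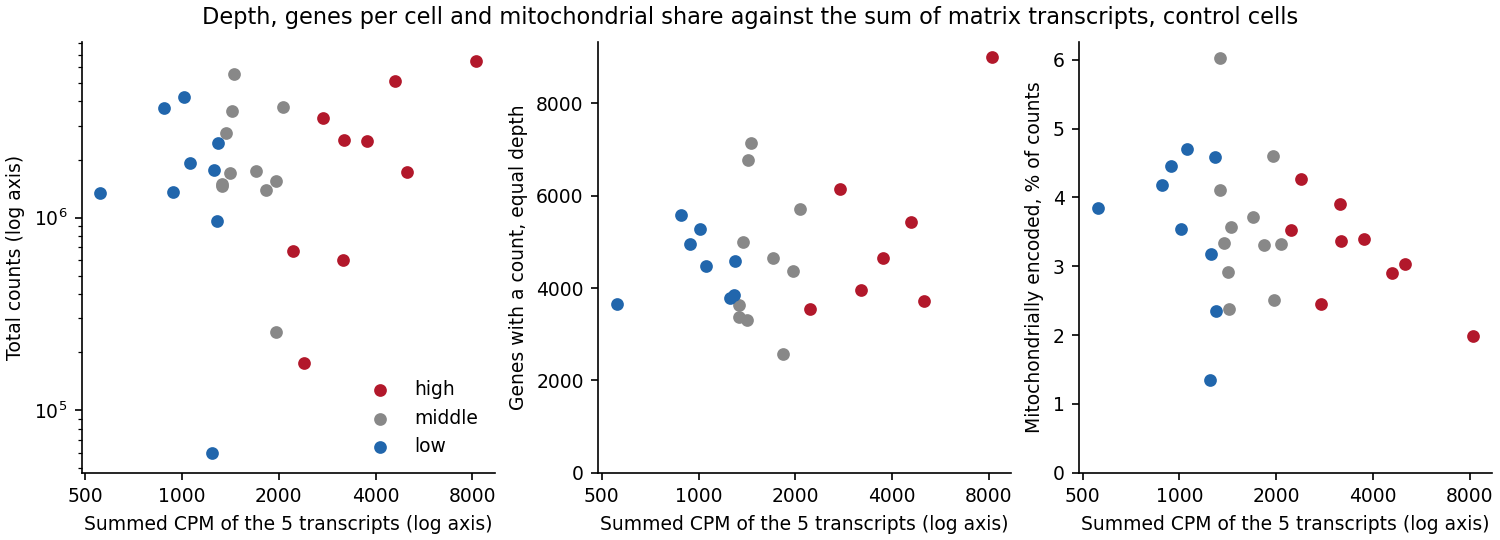
Total counts (log axis), genes with a count at equal depth and percent of counts from mitochondrially encoded genes against the summed CPM of the 5 transcripts (log axis), 1 point per kept control cell. High (red) and low (blue) cells overlap on all 3 vertical axes; the middle panel leaves out the 4 cells under 639000 counts.

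For every other gene, the mean CPM over the 9 high cells was divided by that over the 9 low cells, with 1 CPM added to both, and the ratio is given on the log2 scale. Over the 8699 genes that averaged 5 CPM or more across both sides, the median ratio was -0.01, with quartiles of -1.03 and 1.07. By this measure 26% of genes were at least 2-fold higher and 25.5% at least 2-fold lower in the high cells. That is the background against which any gene or list must be read: at 9 cells a side, a 2-fold difference of means is common. A stricter description asks in what share of the 81 pairs of a high and a low cell the high cell has more of a transcript. Among the 6139 genes of at least 20 CPM, 26 genes (0.424%) were higher in at least 80% of pairs and 56 genes (0.912%) were lower in at least 80%, with a median in the same direction. These genes are called ordered below.

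Of the genes in the 4 matrix lists (collagens, glycoproteins, collagen-processing enzymes, proteases), Col5a2 was the one that was ordered. It encodes a chain of type V collagen, which nucleates and sets the width of type I fibres. Its level ran from 0 to 623 CPM in the high cells (median 181) and from 0 to 250 CPM in the low cells (median 3.82), and it was detected in 8 of 9 high and 5 of 9 low cells. The ranges overlap, but only 1 high cell (C2) lacked it, while the highest low value came from D10, the cell with 59979 counts. Means were 261 and 50.4 CPM, a log2 ratio of 2.35, and the high cell was above in 84.6% of pairs. The ratio was positive in all 4 lettered sets, and leaving out single cells moved it between 2.07 (without B4) and 3.31 (without D10). The gene was picked for its order in these same cells, so neither is separate support. The gene lies on chromosome 1 from 45413491 to 45542442 on the minus strand of GRCm39, 24624 bases beyond the end of Col3a1. Over the 29 cells Col5a2 had a Spearman correlation of 0.09 with its neighbour Col3a1, 0.46 with Col1a1 and 0.49 with Fn1.

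The collagens as a group do not follow Col5a2. Of 21 listed collagens other than the score genes, 10 reached 5 CPM, 6 of them at least 2-fold higher and 3 at least 2-fold lower in the high cells. Their median log2 ratio was 1.51, but it was -0.0355 without cell B4 and 0.00 when medians over cells replaced means, so this direction rests on 1 cell. B4 carried 2254 CPM of these collagens, against 59.7 to 1206 CPM in the other high cells and 0.75 to 595 CPM in the low cells. Col12a1, a fibril-associated collagen, had a count in 6 high and 3 low cells with means of 130 and 15.9 CPM. The basement membrane chains went both ways: Col4a5 had means of 42.3 and 3.03 CPM, Col4a1 means of 0.52 and 13.7 CPM and Col18a1 means of 3.93 and 49.8 CPM, each with a count in at most 5 cells of either side.

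Matrix glycoproteins and proteoglycans were higher as a sum. The list summed to 6584 to 15574 CPM in the high cells (median 10349) and to 4322 to 9949 CPM in the low cells (median 6188), and the high cell was above in 85.2% of pairs. The ranges overlap between 6584 and 9949 CPM. Gene by gene the shift is smaller: 17 of 31 listed genes reached 5 CPM, 7 were at least 2-fold higher and 3 at least 2-fold lower, and their median log2 ratio was 0.59, which was 0.079 when Thbs1 was left out of the score and 0.14 without cell C2. By lettered set it was -1.24 in A, 0.48 in B, 0.79 in C and 0.98 in D.

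The sum is carried by a few abundant secreted proteins. Sparc, a collagen-binding glycoprotein, ran from 3294 to 7123 CPM in the high cells (median 4834) and from 1783 to 5477 CPM in the low cells (median 2574). Spp1, which encodes osteopontin, had medians of 2526 and 1011 CPM, with ranges of 649 to 8231 CPM and 304 to 5066 CPM. Dcn, the collagen-binding proteoglycan decorin, had medians of 857 and 359 CPM but no count in 2 high cells. None of the 3 reached 80% of pairs: Sparc had 77.8%, Dcn 70.4% and Spp1 67.9%. Sparc and Spp1 were higher in all 4 lettered sets, with log2 ratios of 0.55 and 0.88, and Dcn in 3 of 4. Lower genes of the list were rarer transcripts, such as Postn (periostin), with means of 3.91 and 42.3 CPM and a count in 2 cells of each side.

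Genes that fold, modify and crosslink collagen moved little. Of 24 listed, 21 reached 5 CPM, 7 were at least 2-fold higher, 2 were at least 2-fold lower, and the median log2 ratio was 0.36. Serpinh1, the collagen chaperone HSP47, was the most regular of the abundant ones, with a range of 47.6 to 880 CPM in the high cells and 50.8 to 468 CPM in the low cells, medians of 385 and 124 CPM, and 75.3% of pairs. Lox, a crosslinking oxidase, had means of 647 and 620 CPM and the lower median in the high cells (353 against 712 CPM). P4hb, a subunit of prolyl 4-hydroxylase, had means of 1092 and 934 CPM. Among 11 proteases and inhibitors of at least 5 CPM, 3 were 2-fold higher and 2 were 2-fold lower, with a median of 0.16. Timp2, an inhibitor of matrix metalloproteases, had medians of 736 and 343 CPM and 76.5% of pairs.

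Serpinf1 and Vim were the most abundant ordered genes. Serpinf1 encodes the secreted serpin PEDF, which binds collagen. It ran from 867 to 5101 CPM in the high cells (median 2153) and from 358 to 3151 CPM in the low cells (median 971), with the high cell above in 87.7% of pairs. Only 1 low cell (A11, 3151 CPM) exceeded the median of the high cells. Vim, the intermediate filament protein vimentin, ran from 1669 to 5254 CPM (median 2782) and from 218 to 2971 CPM (median 1724), with 84.0% of pairs. Both were higher in all 4 lettered sets, which split the same cells that ordered them and so give no separate support. The log2 ratios were 1.12 for Serpinf1 and 0.99 for Vim.

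The mesenchymal identity genes varied among themselves. Of 11 genes of that list at 5 CPM or more, 3 were at least 2-fold higher and 1 at least 2-fold lower, with a median of 0.35, which was 1.02 when Thbs1 was left out of the score, 1.90 without lettered set C and -0.11 with DESeq2 size factors. The summed list, which includes Vim, ran from 2071 to 6500 CPM in the high cells (median 4008) and from 1823 to 4296 CPM in the low cells (median 2978), with 79.0% of pairs. The genes at least 2-fold higher were Zeb2 (log2 ratio 2.86), Pdgfra (2.18) and Pdgfrb (1.52), each with a count in at most 3 cells of a side. Twist1, a transcription factor of mesenchymal cells, had a count in 0 of 9 high cells and in 4 of 9 low cells, a difference that was not tested. S100a4 had medians of 793 and 809 CPM. Smooth muscle actin, Acta2, had medians of 142 and 711 CPM but ranges of 0 to 4502 CPM and 0 to 3987 CPM.

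**Figure D3:**
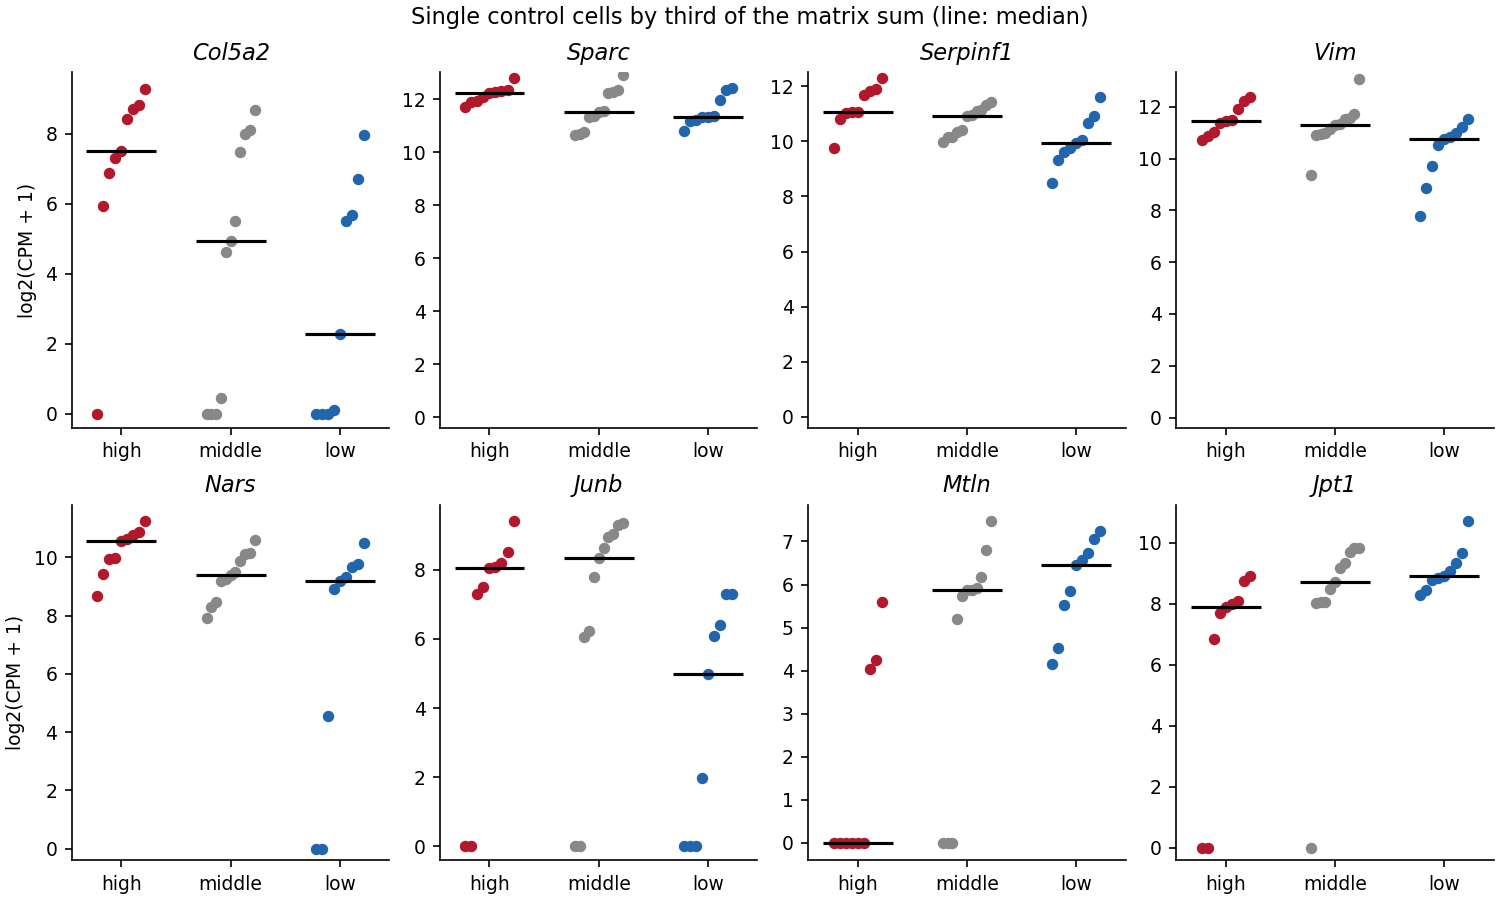
Level of 8 genes as log2(CPM + 1) in each kept control cell, by position in the ranking (9 high, 11 middle, 9 low cells); the black line is the median. Col5a2, Serpinf1, Vim and Nars lie higher and Mtln and Jpt1 lower in the high cells, and every gene overlaps between high and low cells.

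Beyond the matrix, the 26 genes ordered higher have varied known roles. The 12 with the largest ratios, 2 predicted genes among the 26 being left unnamed, were Pgd, Secisbp2l, Esf1, Celf1, Ap3d1, H2-T22, Flot1, Atn1, Myo10, Gsr, Snrnp70 and Col5a2, with log2 ratios from 2.35 (Col5a2) to 5.95 (Pgd). Most were seen in a part of the cells only. Pgd, an enzyme of the pentose phosphate pathway, had a count in 6 of 9 high cells, up to 207 CPM, and in 0 of 9 low cells. Gsr, which encodes glutathione reductase, had medians of 122 and 24.4 CPM. Flot1, a scaffold protein of membrane microdomains, had a count in 7 high and 2 low cells, with medians of 120 and 0 CPM.

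Celf1, which encodes an RNA-binding protein, had means of 242 and 11.8 CPM, and Snrnp70, a component of the U1 splicing particle, 64.6 and 11.6 CPM. Myo10, the motor protein of filopodia, had medians of 253 and 1.54 CPM and a count in 9 high and 6 low cells. Ap3d1, a subunit of the AP-3 sorting adaptor, had means of 133 and 7.74 CPM. H2-T22 belongs to a family of near-identical class I genes among which reads can be split, and its ratio is uncertain. All 12 were higher in the high cells of all 4 lettered sets, as were 23 of the 26 genes ordered higher. The sets split the same cells in which these genes were picked for their order, so this gives no separate support.

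By rank correlation with the matrix sum over the 29 cells, the 8 nearest genes were Atn1 (0.59), Pgd (0.56), Nars (0.55), Flot1 (0.54), Rgp1, Col5a2 (0.52), Serpinf1 (0.51) and Mfsd4a. Nars, the cytosolic asparaginyl-tRNA synthetase, was the most abundant of them after Serpinf1. It ran from 410 to 2436 CPM in the high cells and from 0 to 1449 CPM in the low cells, with medians of 1525 and 576 CPM and a log2 ratio of 1.33. These are cells of 1 treatment ranked by a sum from the same libraries.

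The 56 genes ordered lower outnumbered those ordered higher. High cells C3, A12 and C2 had fewer genes with a count at full depth than any low cell. How far this bears on the zeros among genes ordered lower was not tested. Among the 12 with the largest differences were Agap3, Nsun3, Lin7c, Fam120aos, Cdc45, Washc3, Smim1, Zfp560, Psme3, Mtln and Slu7, 1 predicted gene being left unnamed. Mtln, which encodes the mitochondrial microprotein mitoregulin, had the clearest order. It had a count in 3 of 9 high cells, with at most 47.03 CPM, and in 9 of 9 low cells, from 16.7 to 152 CPM, and the high cell was above in 4.94% of pairs. Jpt1, a microtubule-associated protein, ran from 0 to 476 CPM in the high cells (median 235) and from 313 to 1682 CPM in the low cells (median 485), with 7.41% of pairs. Nsun3, a methyltransferase of mitochondrial tRNA, had a count in 0 of 9 high and 6 of 9 low cells. Fam120aos lies antisense to Fam120a, which was also ordered lower; their spans overlap only at the ends, and without a stated strand option reads of the pair cannot be told apart there.

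From the cell cycle lists, 2 of 41 S phase genes (Cdc45 and Rfc2) and 1 of 54 G2/M genes (Ube2c) were ordered lower. From either list, 0 were ordered higher. The 41 and 54 are genes of at least 5 CPM. Only genes of at least 20 CPM could be ordered, and how many of the list genes reached that level is not given. Over all genes of at least 20 CPM the shares were 0.912% lower and 0.424% higher. For lists of this size, 0 genes ordered higher is therefore uninformative. Cdc45, a subunit of the replicative helicase, had medians of 0 and 123 CPM, with a count in 2 high and 7 low cells. Rfc2, a subunit of the clamp loader, had medians of 0 and 147 CPM. The kinetochore gene Cenpm, ordered lower but not among these list genes, had medians of 0 and 411 CPM. Ube2c, the ubiquitin-conjugating enzyme of the anaphase-promoting complex, ran from 0 to 803 CPM in the high cells (median 64.9) and from 16.7 to 1211 CPM in the low cells (median 405).

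The lists of the cell cycle give a weaker picture. Of 54 G2/M genes, all of at least 5 CPM, 17 were at least 2-fold lower and 10 at least 2-fold higher in the high cells, with a median of -0.54. The sums ran from 2061 to 15160 CPM in the high cells (median 5252) and from 3047 to 14422 CPM in the low cells (median 8301). Of the 4 members with the largest log2 ratios, Gtse1 (-5.15) was lower, and Cenpe (4.96), Bub1 (4.83) and Kif20b (4.33) were higher. Gtse1 had a count in 1 high and 4 low cells, Bub1 in 7 and 4, and Cenpe and Kif20b in 2 high cells each. Birc5, the survivin gene of the chromosomal passenger complex, had medians of 316 and 808 CPM, and Cdk1, the target of RO-3306, 114 and 295 CPM. Both were chosen after their values were seen. Ccnb1 had a median of 0 on both sides, and Cenpf was higher on the high side, with means of 116 and 11.1 CPM. The list median was 0.068 when cells were ranked by mean ranks of the 5 genes and 0.051 without lettered set C, and -1.15 without B4, whose G2/M sum of 15160 CPM was the highest of the high cells. Of 41 S phase genes, 10 were lower and 7 higher by 2-fold, with a median of -0.45. Among the 4 largest ratios, Blm (-4.19), Cdc45 (-3.83) and Tipin (-3.55) were lower and Pola1 (4.01) was higher. Tipin, a member of that list with a mean of 2658 CPM in the low cells, owes it to 1 cell, D10, at 21935 CPM.

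Immediate early and AP-1 genes were higher in the high cells. These encode transcription factors and feedback regulators that are transcribed within minutes of serum, stretch or stress. Of 19 listed, 12 reached 5 CPM, 7 were at least 2-fold higher and 0 were at least 2-fold lower, with a median log2 ratio of 1.52. The sums ran from 23.2 to 2308 CPM in the high cells (median 1056) and from 101 to 1140 CPM in the low cells (median 332), so the ranges overlap, and the high cell was above in 76.5% of pairs. Junb ran from 0 to 683 CPM (median 267) and from 0 to 157 CPM (median 30.5). Ier2 had medians of 121 and 0.74 CPM. Egr1 had a count in 4 of 9 high and 0 of 9 low cells, and Fos and Dusp1 each in 2 of 9 and 0 of 9 cells. Leaving out single cells gave list medians from 1.36 to 1.83. With medians over cells in place of means the value was 0.24, and most of these genes had a count in fewer than 5 of the low cells.

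Junb did not belong to the high cells alone. Its median in the middle cells was 324 CPM, above that of the high cells, and the summed list had a median of 871 CPM there. The low cells had the lowest median of the 3 on both measures.

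Genes of cholesterol synthesis and uptake had a median of 0.82 over 12 genes, 5 of them at least 2-fold higher and 2 at least 2-fold lower. Srebf2, the transcription factor of the pathway, had a count in 5 of 9 high and 1 of 9 low cells. Sums had medians of 793 and 593 CPM with ranges of 187 to 2335 CPM and 17.9 to 842 CPM. The list median was 2.74 without lettered set C and 0.00 with medians over cells.

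The gene medians of the lists of the secretory route lay near the background, while their sums were more often above in the high cells. Chaperones of the endoplasmic reticulum and genes of the unfolded protein response had a median of 0.28, with 3 of 20 genes 2-fold higher and 2 lower. Their sums had medians of 7654 and 5346 CPM, and the high cell was above in 69.1% of pairs. Secretory pathway genes had a median of 0.10 over 38 genes, 11 of them 2-fold higher and 3 lower. Their sums ran from 11221.5 to 14571 CPM in the high cells (median 12261) and from 6460 to 13103 CPM in the low cells (median 11157). The ranges overlap, and the high cell was above in 75.3% of pairs. Sec61a1, the channel through which chains enter the endoplasmic reticulum, had medians of 486 and 166 CPM, and Copg1, a coat subunit of Golgi vesicles, 168 and 6.28 CPM with 79.0% of pairs. Ribosomal protein genes (median 0.02 over 56 genes), nuclear-coded oxidative phosphorylation genes (-0.05 over 46) and housekeeping genes (0.02 over 7) had medians within 0.1 of 0.

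**Figure D4:**
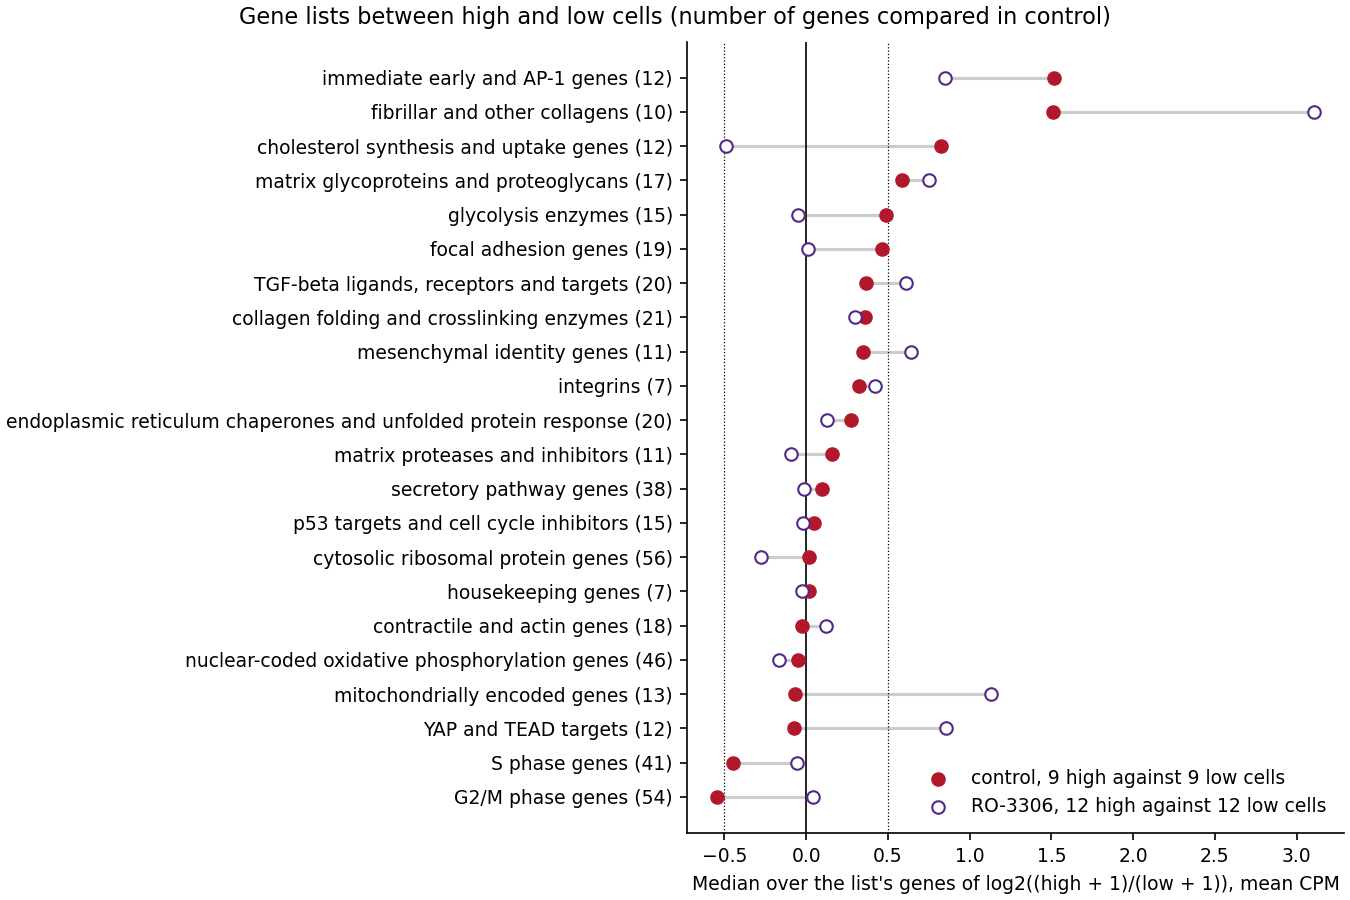
Median log2 ratio of high over low cells for each gene list with at least 5 genes compared, in control cells (red) and RO-3306 cells ranked by the same sum (open purple); dotted lines mark 0.5 on either side. The collagen median is 1.51 for control and 3.11 for RO-3306 cells, cholesterol genes change side, and G2/M genes are at -0.54 and 0.04.

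The same ranking was made in the 37 kept RO-3306 cells, which the rule did not use. Their matrix sums were lower, from 489 to 12061 CPM in 12 high cells (median 888) and from 29.7 to 218 CPM in 12 low cells (median 150). Of 8805 genes compared, 20.3% were at least 2-fold higher and 16.1% at least 2-fold lower in the high cells. The score genes had Spearman correlations of 0.51 for Col1a1 with Col3a1, 0.52 for Col3a1 with Fn1 and 0.34 for Fn1 with Thbs1, and Col1a2 had -0.21 with Col3a1 and -0.18 with Fn1; the difference from control cells was not tested. Among the high cells, A11 has a sum far above the next and 18.1% of its counts from mitochondrially encoded genes, so values are also given without it. Another high cell, B3, had 56.0% of its counts from these genes, while the medians of that share were 4.44% on both sides. Without B3 the collagen list median given below was 3.11, as with it, and the glycoprotein list median was 0.86.

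The genes ordered in control cells were looked up in RO-3306 cells. Of the 26 genes ordered higher in control cells, 12 had a mean ratio of the same sign in RO-3306 cells and 1, Col5a2, was again above in at least 80% of pairs. Of the 56 ordered lower, 38 had the same sign and 1, Timm13, a chaperone of mitochondrial import, was again ordered. Among the 24 genes named for the largest differences, 13 kept their sign. The median log2 ratio over all genes compared in RO-3306 cells was -0.07. The shares of all genes with the same sign or order are not given here. These counts therefore cannot be read as a property of the ordered genes. Vim had means of 1400.5 and 1503 CPM in the high and low RO-3306 cells, Nars a log2 ratio of -0.02 and Pgd 0.16. Serpinf1 had medians of 1479 and 1264 CPM and 69.4% of pairs.

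Col5a2, ordered in control cells, was above in 84.6% of control pairs. Sparc was above in 77.8% of control pairs and was not ordered there. It was chosen after its values were seen. The share of all genes this high in both treatments is not given, so Sparc is an example only. In RO-3306 cells Col5a2 had a count in 12 of 12 high and 7 of 12 low cells, medians of 88.1 and 3.70 CPM, 88.2% of pairs and a log2 ratio of 4.68, or 2.55 without A11. Its correlation with Col3a1 was 0.43 there, against 0.09 in control cells. Sparc had medians of 2181 and 1247 CPM and 88.2% of pairs, with a log2 ratio of 0.96, or 0.92 without A11. The difference between treatments was not tested.

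Further genes passed 80% of pairs in RO-3306 cells and not in control cells, a difference that was not tested. Those given here were chosen after their values were seen. The share of all genes that did so is not given, so they are examples only. Col6a1, a chain of the microfibrillar type VI collagen, was above in 89.6% of RO-3306 pairs and 60.5% of control pairs. Fbln2, the elastic-fibre protein fibulin-2, was above in 87.5% and 51.9%. The chaperone Hsp90b1 was above in 84.0% and 64.8%. The collagen list had a median of 3.11 over 8 genes (1.51 without A11) and the glycoprotein list 0.75 over 16 genes. The immediate early list had 0.85 over 11 genes, which was -0.026 with medians over cells, the cholesterol list -0.49, and the G2/M list 0.04 with 11 of 53 genes 2-fold higher and 7 lower.

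**Figure D5:**
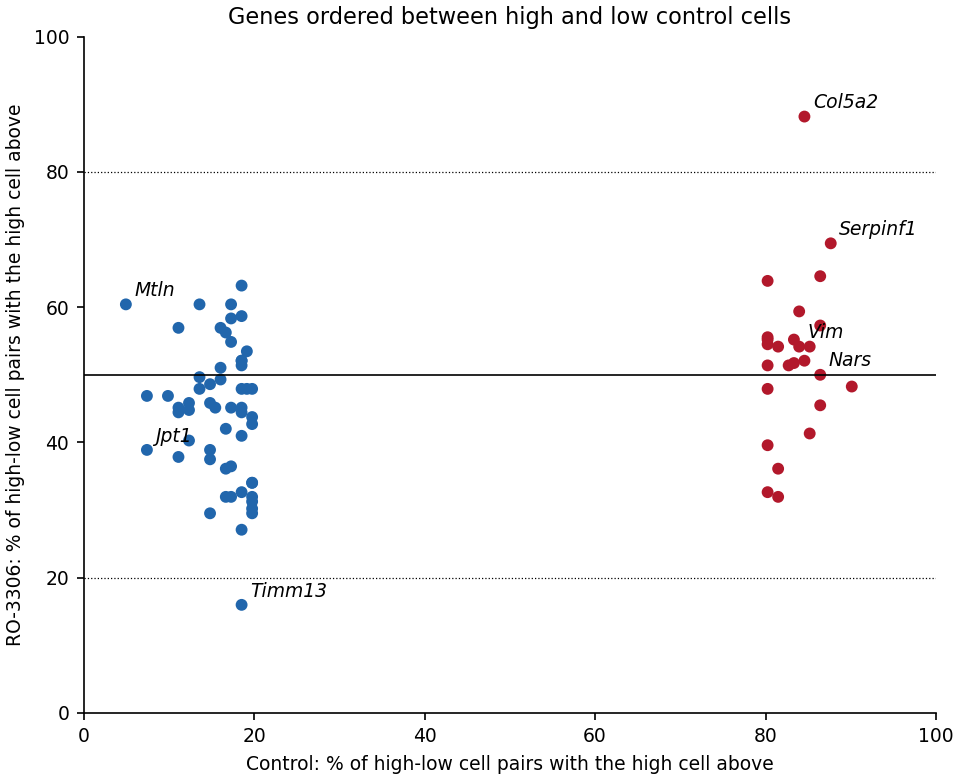
Share of high-low cell pairs in which the high cell has more of a transcript, in control cells (horizontal) and RO-3306 cells (vertical), for the 82 genes ordered in control cells; red genes are higher and blue genes lower in high control cells. Dotted lines mark 20% and 80%: Col5a2 lies above the upper line and Timm13 below the lower one, and the other 80 genes lie between them.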

How the data were processed

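Single-cell RNA libraries of C10 cells were prepared with SMART-seq v4 and sequenced as single reads of 150 nt, per the labels' protocols. The authors deposited expected counts per gene, made with featureCounts 2.0.3 on GRCm39 and its RefSeq genes per the file headers: counting ran over whole gene spans, with a read that maps to more than 1 site divided equally among its sites. FastQC and STAR are named in the submitters' processing notes, with versions not given in the sources used here. Headers name no strand option. Reads carry no molecular identifiers, so levels include PCR copies.

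Each file lists 40202 genes, and no 2 kept libraries were identical. Control totals ran from 5 to 6457215 counts. Cells were kept from 50000 counts and 1000 genes with a count of at least 1. CPM were computed per cell on the total without the 5 score genes (the score itself on the whole total), averaged over cells with equal weight, and compared as log2((high + 1)/(low + 1)), which understates the change of low genes. Genes compared had a mean of at least 5 CPM. For equal depth, cells were thinned to 639000 counts, percentile 10 of kept totals rounded down to a multiple of 1000. Shares of cells are given as counts of cells, without intervals.

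Each treatment is 1 sample, since the labels name no culture: no test was run. No doublet caller was run on sorted single cells. A list was given a direction where its median was outside 0.5 on the log2 scale and its summed level moved the same way. Named genes were the 12 highest and 12 lowest ratios among genes of at least 20 CPM with a count in at least 6 cells of the higher side, a median in the same direction and 80% of pairs ordered, leaving out predicted genes; the 4 largest ratios of each list; and the 8 nearest by rank correlation. Sparc, Spp1, Dcn, Vim, Jpt1, Timm13, Col6a1, Fbln2, Hsp90b1 and the other genes outside this rule were chosen after their values were seen. Some genes that the rule names are not reported here. The ranking, members and lists were chosen with earlier results of these data known.

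Python 3.11.15 was used (scipy 1.17.1, pandas 2.3.3, numpy 2.4.6, and matplotlib 3.10.9 for figures), and the steps were tested on simulated data. Scaling factors from edgeR 4.0.16 and DESeq2 1.42.0 (R 4.3.3) on rounded counts served as alternatives. Transcript lengths came by symbol from GENCODE M21, an older build used for no coordinates, and 96.5% of the genes compared had one.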

Additional observations from a re-analysis of the deposited data

Results flagged for a closer look

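Of 20 groups of cell values looked at for a cell lying apart, 2 had one. No chance rate is set beside this, since 1 of the 2, the matrix sum, itself chose the high cells. The matrix sum of control cell B4 was 8207 CPM against 5023 CPM in the next high cell. B4 is also the deepest control cell (6457215 counts), so its values rest on the most reads. It holds the highest single values on the high side of the remaining collagens (2254 CPM) and the G2/M list (15160 CPM), and its Malat1 level of 12906 CPM sets the Malat1 mean of the high cells (1466 CPM against 31.3 CPM in the low cells, log2 ratio 5.51, or 0.21 without B4).

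Among the low cells, the geometric mean length of the mRNAs counted was 1889 nt in cell D10 against 1458 nt in the next cell. D10 had 59979 counts, of which 21.8% fell on its 10 most abundant genes, where the other low cells had 4.09% to 6.30%. Between all genes, ratio and length had a Spearman correlation of 0.05 over 8395 genes, and the shortest and longest of 10 length classes had medians of -0.02 and 0.04.

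In the 19 control libraries left out for low counts, which no comparison uses, 47 of 341166 counts fell on the 5 score genes, a level of 138 CPM when summed, and 7 of the libraries had such a count. This is below the lowest kept control cell, at 557 CPM.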

How the results depend on the processing

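Of 6047 values recomputed for 163 results, 5801 moved by less than 1 SD over cells (counts by less than 1.5 times, the median over all genes by less than 0.1), 243 moved by more and 3 changed sign after a direction had been given. That SD is wide for some lists: 2.23 for collagens, 1.67 for cholesterol genes and 1.62 for immediate early genes. Their medians of 0.00, 0.00 and 0.24 with medians over cells thus count among the 5801, which is no measure of stability. The reversals were the collagen list without B4 (-0.0355) and the G2/M list with mean ranks (0.068) and without set C (0.051). Of 27 named genes that were ordered, 0 reversed, but they were picked for their order in these same cells. With medians over cells in place of means, 26.8% of genes were past 2-fold in either direction and the glycolysis list was at 0.00. DESeq2 size factors moved the median of all genes to -0.20, a shift against which single genes should be read, glycolysis to 0.11 and mesenchymal identity genes to -0.11. Without Thbs1 in the score, matrix glycoproteins were at 0.079 and mesenchymal identity genes at 1.02. With 14 cells a side, TGF-beta genes were at -0.22, glycolysis at 0.13 and mesenchymal identity at 0.88. Without set A, matrix proteases were at 0.92; without set B, glycolysis was at 0.051 and smooth muscle genes at -5.30; without set C, the median of all genes was 0.14, cholesterol genes were at 2.74 and mesenchymal identity genes at 1.90. Leaving out single cells gave collagens -0.0355 to 1.94, matrix proteases 0.0875 to 0.85, TGF-beta genes -0.26 to 0.61 and mesenchymal identity genes 0.091 to 1.11. Alternatives added after seeing the data put glycolysis at 0.11 (ranking without B4), mesenchymal identity at 0.81 (cells of at least 639000 counts), the RO-3306 median of all genes at 0.039 (without cell B3) and its immediate early list at -0.026 (medians over cells). The cause of these moves was not tested. No paired analysis was possible because the result comes from no test and the shared label numbers tie no cells together. Depth limits statements of absence: with D10 at 59979 counts and A12 at 176892, a transcript at 0 there may only be undetected.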

Other observations

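Adhesion and cytoskeletal genes were looked at beside the matrix genes. Of 19 focal adhesion genes of at least 5 CPM, 6 were at least 2-fold higher and 1 at least 2-fold lower in the high control cells, with a median of 0.46 and sums with medians of 2872 and 2018 CPM. Lims1, an adaptor of integrin-linked kinase, had medians of 263 and 62.6 CPM, and the actin crosslinker Actn1 30.5 and 1.13 CPM. Of 18 contractile and actin genes, 3 were 2-fold higher and 0 lower, with a median of -0.02. Myh10, the non-muscle myosin IIB heavy chain, had means of 123 and 3.58 CPM, a count in 7 high and 4 low cells and 76.5% of pairs. Of 7 integrins, 1 was higher and 1 lower by 2-fold.

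Of 20 genes of TGF-beta signalling, 7 were 2-fold higher and 4 lower, with a median of 0.37. Ltbp1, which tethers latent TGF-beta to the matrix, had a count in 5 of 9 high and 0 of 9 low cells, a difference that was not tested. Smad7, the inhibitory target of the pathway, had means of 0.03 and 17.7 CPM, with a count in 1 cell of each side. Of 12 YAP and TEAD targets, 5 were 2-fold higher and 0 lower, yet the median was -0.07. Ccn2, a target shared by both pathways, had medians of 89.4 and 0 CPM with a count in 5 high and 2 low cells, and Ccn1 medians of 150 and 0.74 CPM but the lower mean in the high cells (180 against 277 CPM), where cell C7 of the low side reached 1851 CPM. Of 15 p53 targets, 4 were higher and 4 lower by 2-fold.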
